A study of Mus musculus with 31 samples.

Results

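The genes of glycolysis and of the cellular response to low oxygen were followed across fetal gonads of the mouse. The set is a list of 33 named genes, and a gene counts as measured where a probe set of the array has that gene as its only symbol in the platform annotation. By that rule 31 of the 33 were measured, among 18193 genes named in all. Gpi1 and Eno1 were not analysed here. Where a gene has several probe sets, as 19 of the 31 do, the probe set with the highest mean log2(signal + 16) over the 31 arrays stands for it. All 31 passed the filter on low signal, and 27 of them lay above the array's own median signal on every array. The exceptions were Egln3, above it on 15 arrays, Pfkfb3 on 20, and P4ha2 and Eno2 on 22 each, so the values of these 4 are nearer the noise.

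Each array measured the RNA of a single pair of E14.5 gonads, separated from the mesonephros, and a pair of gonads is a replicate. All groups carried the Sf1-cre+/Tg transgene, which is active in somatic cells of the gonad, so germ cells keep both floxed genes. Every embryo also carried at least 1 floxed copy of each gene. Control gonads (Ctr) were Ctnnb1+/f and Sox9+/f, and so had already a floxed copy of both genes with the Cre. No gonads without Cre were analysed here. The Ctnnb1KO gonads were Ctnnb1f/f with Sox9+/f, the Sox9KO gonads were Ctnnb1+/f with Sox9f/f, and the double knockouts (DKO) were Ctnnb1f/f with Sox9f/f. Each genotype was collected from XX and from XY embryos, with 4 arrays in 7 groups and 3 in XY DKO. SOX9 is the transcription factor that drives supporting cells of the XY gonad to become Sertoli cells, and CTNNB1 (beta-catenin) carries the WNT signal that maintains ovarian development in the XX gonad.

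Glycolysis turns glucose, taken up by transporters of the Slc2a family, into pyruvate in a chain of enzymes that starts at hexokinase. Lactate dehydrogenase converts pyruvate to lactate, which leaves or enters cells through Slc16a transporters, while pyruvate dehydrogenase kinases hold pyruvate back from the mitochondria. Under low oxygen the factor HIF1A is no longer marked for breakdown by prolyl hydroxylases of the Egln family, and it raises the transcription of many of these genes and of others such as Vegfa. Fetal Sertoli cells of the testis and pregranulosa cells of the ovary are the supporting cells of their gonads, and in the postnatal testis Sertoli cells are known to be glycolytic and to hand lactate to germ cells.

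HIF dimers bind DNA at the short core ACGTG, so the 250 bases before each annotated gene start were searched for ACGTG and for its reverse complement CACGT, which covers both strands. CACGTG holds both and was counted as 1 site. Promoters were found for 29 of the 31 measured members, Ndrg1 and Slc2a3 being the others, in RefSeq's table for GRCm38.p6. The core was present in 23 of the 41 promoters of members (56.1%), against 16.6% of all 32851 promoters and 21.6% of the 12241 promoters of genes tested. By gene, 20 of 29 members had it (69.0%), against 25.4% of the 9544 genes tested that have a promoter entry. The median GC content was 62.8% in promoters of members and 60% in those of genes tested. Among promoters of 60% GC or more the shares were 79.2% and 24.2%. The list holds genes known as HIF targets, so the share describes the list and is no independent result. A match is a description of letters, not of binding. Of the 4 promoters shown next, 2 belong to the pair of members with the widest spread over the groups (Slc16a1 and Adm). The others are that of Ldha, which has the most copies of the core of these 4, and that of Pgk1, the member with the narrowest spread. They are written 5′ to 3′ on the strand of the gene, with the core in capitals: Slc16a1 at chr3:104638414-104638663 (plus strand), Ldha at chr7:46845554-46845803 (plus strand), Adm at chr7:110627407-110627656 (plus strand) and Pgk1 at chrX:106186850-106187099 (plus strand).
Slc16a1: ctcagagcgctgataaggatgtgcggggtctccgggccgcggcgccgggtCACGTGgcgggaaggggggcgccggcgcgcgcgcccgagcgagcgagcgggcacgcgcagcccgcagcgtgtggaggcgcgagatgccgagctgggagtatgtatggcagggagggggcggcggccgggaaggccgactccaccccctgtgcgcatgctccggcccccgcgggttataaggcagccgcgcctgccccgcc
Ldha: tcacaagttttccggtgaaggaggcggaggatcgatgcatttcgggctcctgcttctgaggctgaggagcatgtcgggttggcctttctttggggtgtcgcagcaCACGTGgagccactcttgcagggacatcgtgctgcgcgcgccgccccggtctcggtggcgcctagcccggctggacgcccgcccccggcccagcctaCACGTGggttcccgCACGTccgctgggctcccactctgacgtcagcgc
Adm: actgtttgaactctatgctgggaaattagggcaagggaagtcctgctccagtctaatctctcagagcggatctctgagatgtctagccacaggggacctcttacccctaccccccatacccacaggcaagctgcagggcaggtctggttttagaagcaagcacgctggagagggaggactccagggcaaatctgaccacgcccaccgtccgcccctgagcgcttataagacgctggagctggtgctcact
Pgk1: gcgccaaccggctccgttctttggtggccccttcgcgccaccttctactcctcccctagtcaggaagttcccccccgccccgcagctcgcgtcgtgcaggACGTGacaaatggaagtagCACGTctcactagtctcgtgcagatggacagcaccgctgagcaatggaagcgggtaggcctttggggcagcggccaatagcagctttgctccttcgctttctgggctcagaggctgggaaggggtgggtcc
The Slc16a1 window holds 1 CACGTG, the Ldha window 3 cores, starting 145, 48 and 34 bases before the gene start, and the Pgk1 window 2 cores, at 150 and 131 bases before it. The Adm window holds none, which says only that these letters are not in this window.

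The deposited values are MAS5 signals scaled to a trimmed mean of 500 on every array, with array medians of 120.6 to 168.8. The ratio of 3′ to 5′ signal ranged from 0.958 to 1.212 for actin and from 2.343 to 3.216 for Gapdh. The lowest median and the highest actin ratio were both on XY DKO replicate 3, in the group with 3 arrays. Sox9 signal was 839.7 to 1025 in XY Ctr, 7.142 to 41.66 in XY Sox9KO, 8.648 to 34.9 in XY DKO and 11.73 to 174.3 in XX Ctr. Ctnnb1 signal was between 11000 and 14180 in all groups. No source used here says whether its probe set lies in the deleted exons, so it checks nothing. Replicate 4 of XX Ctnnb1KO stands apart, with an Xist signal of 51.12 against 7886.2 to 8552.8 in the other 3 arrays of the group. Its signal of the Y-linked gene Eif2s3y was at the XX level (29.57). Counts of called members in comparisons of XX Ctnnb1KO, and several member differences, are therefore also given without it. Marker sums and genes outside the members include it.

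Differences between groups were tested with limma over all 11777 genes that passed the filter, on log2(signal + 16), with 1 spread estimated over all 8 groups. A gene is called where its Benjamini-Hochberg adjusted p over all these genes is below 0.05, and "±" after a log2 difference is the standard error. The group means of the members spanned 0.53 log2 units at the median, from 0.19 for Pgk1 to 1.11 for Slc16a1 and 1.67 for Adm, against a median of 0.48 for all genes tested. These last 2 were the only members whose group means spanned more than 1 log2 unit (6.45% of members, against 15.4% of all genes tested).

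The question of the sex comparison is how the XY gonad differs from the XX gonad where a working copy of both genes remains. Of the 31 members, 2 were higher and 7 lower in XY Ctr than in XX Ctr, where 18% of all genes tested were higher and 19.8% lower. The median member difference was -0.01, and that of all genes -0.02. The lower members were Slc16a1, Adm, Pdk3, Pfkm, Bnip3, Ndrg1 and Ldha, and the higher were Pfkfb3 and Hk2. When Sox9 was lost in XY gonads (XY Sox9KO against XY Ctr), 9 members rose and 3 fell, where 22.7% of all genes rose and 16% fell. The medians were 0.19 for members and 0.05 for all genes. The risers were the same 7 members named as lower in XY Ctr, plus Pfkl and Slc2a1, and the fallers were Pfkfb3, Hk2 and Pgam1. Both comparisons use the XY Ctr arrays, so the sets are not independent. Between XY Sox9KO and XX Ctr no member was called, where 0.628% of all genes were. At an unadjusted limma p under 0.05 there were 7 members. That count is not comparable with the share of calls, and no share of all genes is given at that threshold. Aldoa became called there without XX Ctr replicate 4 (0.40, limma adjusted p = 0.0358) and without XY Sox9KO replicate 2 (0.40, limma adjusted p = 0.0306). Read against these shares, the counts are not taken as a result about the members as a set.

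Loss of Sox9 in XX gonads, which have little Sox9 signal to lose, gave no called member by limma and 0 members at an unadjusted p under 0.05, while 0% of all genes were called. Loss of Ctnnb1 in XY gonads likewise gave no called member and 0 at an unadjusted limma p under 0.05, where 0.0679% of all genes were called. In XX gonads loss of Ctnnb1 raised 2 members, Egln3 and Ankrd37, and lowered 2, Ddit4 and Aldoc, where 4.81% of all genes rose and 5.32% fell. The medians were -0.07 for members and 0.00 for all genes. Without XX Ctr replicate 2 or without XX Ctnnb1KO replicate 2 the count fell from 4 to 2, and without the array with low Xist, replicate 4, it was 3, with Aldoc lost. In XX DKO against XX Ctr 1 member rose (Ankrd37) and 2 fell (Hk2 and Ddit4), where 7.29% and 5.61% of all genes did, with medians of 0.03 and 0.01. XX DKO against XX Ctnnb1KO gave no called member by limma, with 0% of all genes called, and still no called member without XX Ctnnb1KO replicate 4. With all arrays 3 members had an unadjusted limma p under 0.05, a threshold at which no share of all genes is given.

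With both genes lost in XY gonads, 5 members rose and 2 fell against XY Ctr, where 9.62% of all genes rose and 7.61% fell. The medians were 0.08 and 0.04. Those that rose were Slc16a1, Adm, Egln3, Hk1 and Ndrg1, and those that fell were Aldoc and Hk2. Set against XY Sox9KO, which asks what the loss of Ctnnb1 adds once Sox9 is gone, XY DKO had 3 higher members (Pfkfb3, Egln3 and Ankrd37) and 6 lower (Aldoc, Adm, Pfkm, Pfkp, Ldha and Pdk3), where 11.1% and 10.8% of all genes were called. The medians were -0.17 for members and -0.02 for all genes. XY DKO against XX DKO gave no called member by limma, where 5.22% of all genes were called. The 7 members at an unadjusted limma p under 0.05 are not comparable with that share, and no share of all genes is given at that threshold. Without XX DKO replicate 1 Pdk3 was called (-0.44, limma adjusted p = 0.0279). All of these comparisons within a sex share their control or knockout arrays with another, and none is read as support for another.

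**Figure D1:**
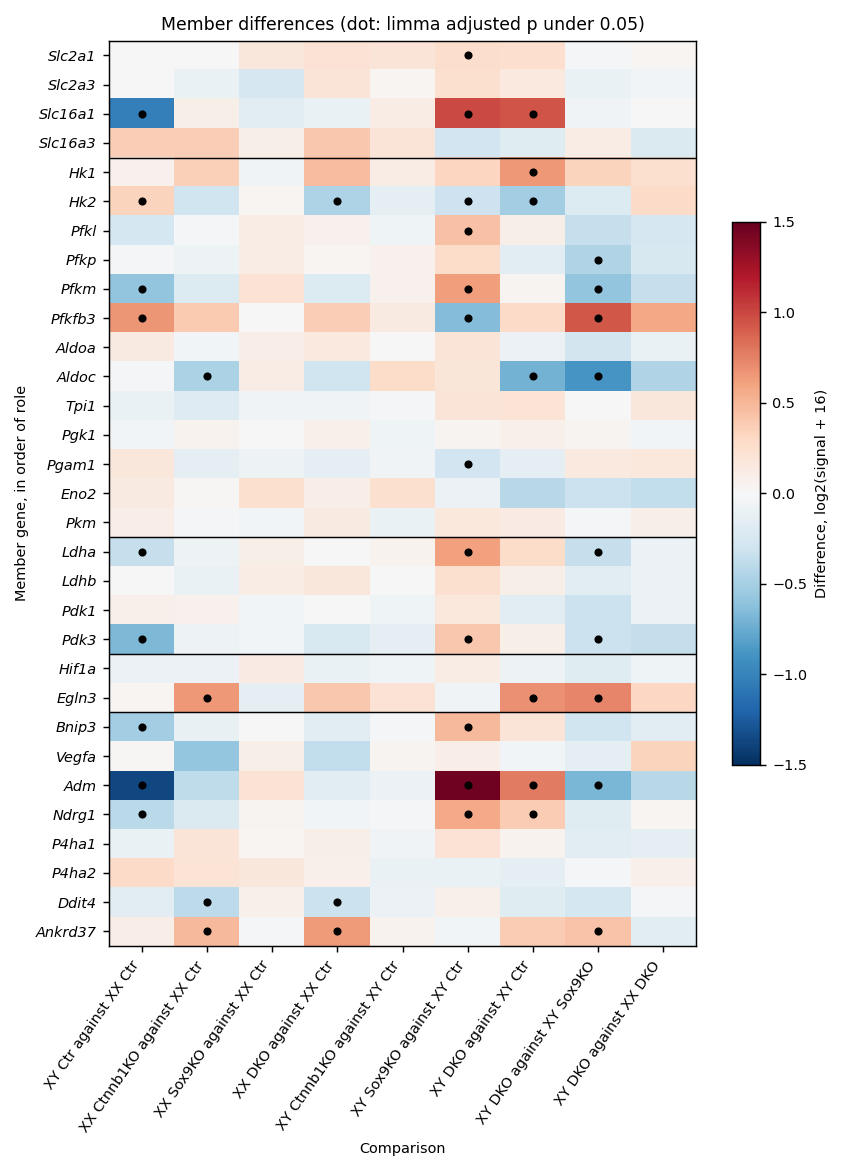
Log2 differences of the 31 measured members (rows, by role) in the comparisons of groups (columns), as colours from lower to higher, with the calls at a limma adjusted p under 0.05 marked. Slc16a1 and Adm have the largest differences in XY Ctr against XX Ctr (-1.03 and -1.37) and in XY Sox9KO against XY Ctr (0.995 and 1.46), and the columns of XX Sox9KO and XY Ctnnb1KO against their controls hold no mark.

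Among the 4 transporters, Slc16a1 had the largest differences. It encodes MCT1, a transporter of lactate and pyruvate across the cell membrane. Its signal was 2222, 1744, 1770 and 1564 in the XX Ctr arrays and 803, 964, 894 and 871 in XY Ctr. In XY Sox9KO it was 1772, 1875, 1753 and 1695, and in XY DKO 1674, 1768 and 1684. XY arrays that kept Sox9 were low, and all XX arrays and all XY arrays without Sox9 were high, with no overlap between these sets. XY Ctnnb1KO stayed low at 958.7 ± 66.8 (SD, n = 4). XX Ctnnb1KO was at 1918 ± 63.2 (SD, n = 4), XX Sox9KO at 1616 ± 60.4 (SD, n = 4) and XX DKO at 1696 ± 61.4 (SD, n = 4). The difference was -1.03 ± 0.08 in XY Ctr against XX Ctr (limma adjusted p = 7.15e-12), 0.995 ± 0.08 in XY Sox9KO against XY Ctr (limma adjusted p = 1.41e-11) and 0.94 ± 0.09 in XY DKO against XY Ctr (limma adjusted p = 1.13e-09). XY DKO and XY Sox9KO differed by -0.05, which was not called. The change upon loss of Sox9 was 1.16 ± 0.11 larger in XY than in XX gonads (limma adjusted p = 2.51e-09).

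Slc2a1 encodes GLUT1, the basal glucose transporter. Its signal was 4194, 4074, 3769 and 3811 in XX Ctr, 4038, 3788, 4310 and 3693 in XY Ctr, and 4563, 4624, 4909 and 4923 in XY Sox9KO. The XX and XY controls covered the same range, with a difference of -0.00 and a 95% interval of -0.22 to 0.21, while every XY Sox9KO array lay above every XY Ctr array. That rise was 0.27 ± 0.11 (limma adjusted p = 0.0479), near the threshold. The call was lost when any of 7 of the 8 arrays compared was left out, all but XY Ctr replicate 3, with adjusted p up to 0.122. The mean over all its probe sets gave 0.19, not called (limma adjusted p = 0.234). Slc2a3, the GLUT3 transporter, had group means of 1150 to 1639, and Slc16a3, the lactate exporter MCT4, of 271.5 to 407.3. Neither was called in any comparison.

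The hexokinases Hk1 and Hk2, which phosphorylate glucose on entry, moved in different directions. Hk2 signal was 899, 1024, 833 and 970 in XX Ctr and 1241, 1163, 1146 and 1158 in XY Ctr. It was 577, 603, 789 and 726 in XX DKO and 723, 838 and 897 in XY DKO. The XY controls were the highest of these arrays, and DKO arrays of both sexes lay below the controls of their sex without overlap. The XY to XX difference in controls was 0.34 ± 0.11 (limma adjusted p = 0.0131), and it was not called without XX Ctr replicate 3 (0.28, limma adjusted p = 0.0569). Hk2 fell by 0.47 ± 0.11 in XX DKO against XX Ctr (limma adjusted p = 0.00278) and by 0.52 ± 0.12 in XY DKO against XY Ctr (limma adjusted p = 0.00166). In XY Sox9KO, at 1138, 965, 906 and 804, it fell by 0.31 ± 0.11 (limma adjusted p = 0.022), a call lost without XY Ctr replicate 1 (-0.29), XY Sox9KO replicate 3 (-0.29) or XY Sox9KO replicate 4 (-0.23). Hk1, by contrast, had 631, 608 and 796 in XY DKO against 482, 347, 445 and 437 in XY Ctr, a rise of 0.65 ± 0.17 (limma adjusted p = 0.00907) with no overlap of arrays. Without XY DKO replicate 4 this was 0.53 and not called (limma adjusted p = 0.0605), and the other Hk1 probe set differed by -0.07 there. The mean over both gave 0.29, not called (limma adjusted p = 0.101).

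The phosphofructokinases commit sugar to glycolysis, and Pfkm, the muscle form, followed the pattern of Slc16a1 in the XY Ctr and XY Sox9KO groups. Its signal was 716, 948, 976 and 1088 in XX Ctr, 662, 633, 639 and 504 in XY Ctr, 990, 835, 1103 and 885 in XY Sox9KO, and 625, 511 and 761 in XY DKO. XY Sox9KO arrays lay above all XY Ctr and all XY DKO arrays, and the 2 latter groups overlapped. The difference was -0.59 ± 0.14 in XY Ctr against XX Ctr (limma adjusted p = 0.00107), 0.63 ± 0.14 in XY Sox9KO against XY Ctr (limma adjusted p = 0.000572) and -0.59 ± 0.15 in XY DKO against XY Sox9KO (limma adjusted p = 0.00469). The last was not called without XY DKO replicate 3 (-0.45, limma adjusted p = 0.0543). Pfkl, the liver form, was 924, 773, 683 and 740 in XY Ctr and 1103, 946, 1006 and 1171 in XY Sox9KO, without overlap, and rose by 0.43 ± 0.12 (limma adjusted p = 0.0049). The mean over its 3 probe sets gave 0.25, which was not called (limma adjusted p = 0.15). Pfkp, the platelet form, was called only as lower in XY DKO than in XY Sox9KO (-0.45 ± 0.16, limma adjusted p = 0.0443), with overlapping arrays. This call was lost without any of 5 of the 7 arrays compared, XY Sox9KO replicates 1, 2 and 4 and XY DKO replicates 2 and 3, and other Pfkp probe sets gave 0.13 and -0.22.

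Pfkfb3 makes fructose 2,6-bisphosphate, an activator of phosphofructokinase, and it had the opposite pattern to Pfkm. Its low signal was 137, 185, 75.0 and 159 in XX Ctr, 215, 261, 195 and 212 in XY Ctr, 139, 149, 143 and 108 in XY Sox9KO, and 241, 317 and 259 in XY DKO. XY Ctr and XY DKO were high, XX Ctr and XY Sox9KO low, with no overlap between high and low arrays. XY Ctr exceeded XX Ctr by 0.66 ± 0.20 (limma adjusted p = 0.00748), which was 0.43 and not called without XX Ctr replicate 3, the lowest array (limma adjusted p = 0.0682). It was also not called with the mean over both probe sets (0.47, limma adjusted p = 0.127). Loss of Sox9 lowered it by 0.65 ± 0.20 in XY gonads (limma adjusted p = 0.0088), and XY DKO was 0.93 ± 0.21 above XY Sox9KO (limma adjusted p = 0.00149). Its other probe set gave -0.65 and 0.58 in the latter pair of comparisons, neither called.

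Further along the chain, Aldoc, the brain form of aldolase, was called as lower in XX Ctnnb1KO and in XY DKO, but not in XX DKO or XY Ctnnb1KO. Its signal was 352, 338, 268 and 410 in XX Ctr, 215, 233, 263 and 247 in XX Ctnnb1KO, 430, 371, 347 and 481 in XY Ctnnb1KO, 369, 408, 334 and 394 in XY Sox9KO, and 198, 211 and 179 in XY DKO. The 3 XY DKO arrays were below every other XY array. Aldoc fell by 0.89 ± 0.17 in XY DKO against XY Sox9KO (limma adjusted p = 0.000185), by 0.71 ± 0.17 in XY DKO against XY Ctr (limma adjusted p = 0.00277) and by 0.47 ± 0.15 in XX Ctnnb1KO against XX Ctr (limma adjusted p = 0.0459). The XX call was lost without any of 7 of its 8 arrays, all but XX Ctr replicate 3, with adjusted p up to 0.164. The effect of Ctnnb1 loss was 1.17 ± 0.23 lower without Sox9 than with it in XY gonads (-1.17, limma adjusted p = 0.00061), and 0.76 ± 0.22 higher in XY than in XX gonads (limma adjusted p = 0.0426). The latter was lost, with values of 0.66 to 0.77, without any of 10 of its 16 arrays. These were XX Ctr replicates 1, 2 and 4, XX Ctnnb1KO replicates 1, 2 and 4, XY Ctr replicates 2 and 3, and XY Ctnnb1KO replicates 1 and 4. A dim second probe set of Aldoc (mean signal 17.29) differed by 0.10 between XY DKO and XY Sox9KO. With the mean over both probe sets, the difference of XY DKO from XY Sox9KO was -0.39 (limma adjusted p = 0.179), that of XX Ctnnb1KO from XX Ctr -0.47 (limma adjusted p = 0.121), that by Sox9 in XY gonads -0.39 (limma adjusted p = 0.434) and that by sex 0.47 (limma adjusted p = 0.456), none of them called.

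Most other enzymes of the chain did not pass the test in any comparison. Aldoa, Tpi1, Pkm, Eno2 and the lactate dehydrogenase Ldhb had no call with all arrays. Pgk1, phosphoglycerate kinase, was 3967, 4037, 4312 and 4352 in XX Ctr, 4224, 4289, 3868 and 3794 in XY Ctr, 4593, 4083, 3685 and 4247 in XY Sox9KO and 4216, 4564 and 4041 in XY DKO. These groups covered a common range, and XY Ctr differed from XX Ctr by -0.04 with a 95% interval of -0.18 to 0.09. Pgam1, phosphoglycerate mutase, was 8032, 7465, 6869 and 8150 in XY Ctr and 6786, 7007, 6023 and 5300 in XY Sox9KO. Its arrays overlapped, and the fall of 0.29 ± 0.09 (limma adjusted p = 0.0102) was not called without XY Sox9KO replicate 4 (-0.21, limma adjusted p = 0.0687).

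**Figure D2:**
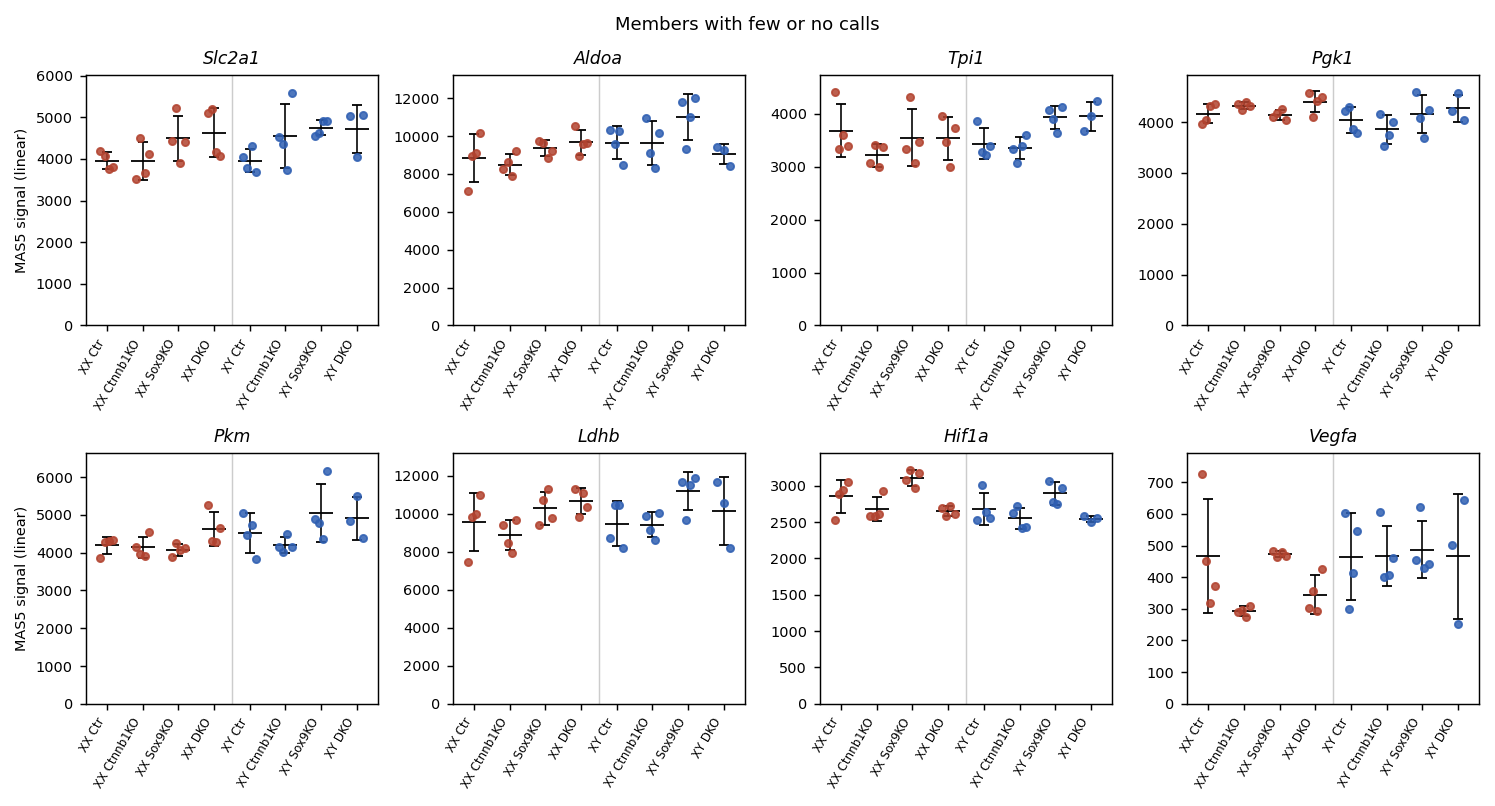
MAS5 signal (linear axes from 0) of 8 members with few or no calls, with a point for each array, XX groups on the left and XY groups on the right, and the mean and SD as bars. Pgk1 has group means between 3858 and 4396, while the Slc2a1 arrays of XY Sox9KO (4563 to 4923) lie above those of XY Ctr (3693 to 4310).

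At the exit of glycolysis, Ldha, the lactate dehydrogenase subunit that favours lactate, was 6020, 6204, 6564 and 6353 in XX Ctr, 5725, 4809, 4328 and 4981 in XY Ctr, 8285, 6599, 7235 and 8308 in XY Sox9KO, and 5850, 6055 and 5988 in XY DKO. Every XY Ctr array was below every XX Ctr array, and every XY Sox9KO array above every array of XY Ctr, XX Ctr and XY DKO. Ldha differed by -0.35 ± 0.09 between XY and XX controls (limma adjusted p = 0.00411), rose by 0.62 ± 0.09 in XY Sox9KO (limma adjusted p = 4.58e-06) and was lower by 0.34 ± 0.10 in XY DKO than in XY Sox9KO (-0.34, limma adjusted p = 0.015). The last call was lost without XY Sox9KO replicate 1 (-0.30, limma adjusted p = 0.0501) or replicate 4 (-0.30, limma adjusted p = 0.0567). All XY DKO arrays were above those of XY Ctr, as for 14.5% of all genes tested. The difference of XY DKO from XY Ctr was 0.27 ± 0.10, not called (limma adjusted p = 0.065). With the replicate number as a block it was 0.30 and called (limma adjusted p = 0.0314). The change upon Sox9 loss was 0.53 ± 0.13 larger in XY than in XX gonads (limma adjusted p = 0.00408).

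Pdk3, a pyruvate dehydrogenase kinase encoded on the X chromosome, was 1113, 1218, 1440 and 1351 in XX Ctr, 789, 825, 755 and 814 in XY Ctr, 1003, 1207, 959 and 1095 in XY Sox9KO and 788, 911 and 840 in XY DKO. XY Sox9KO lay above all XY Ctr and XY DKO arrays and overlapped XX Ctr. The difference was -0.67 ± 0.11 between XY and XX controls (limma adjusted p = 1.05e-05), 0.41 ± 0.11 upon loss of Sox9 in XY (limma adjusted p = 0.0034) and -0.32 ± 0.12 in XY DKO against XY Sox9KO (limma adjusted p = 0.0467). This last call was lost without any of 4 arrays, XY Sox9KO replicates 2 and 4 and XY DKO replicates 2 and 4. Its paralogue Pdk1 was not called in any comparison, and its probe sets disagreed: in XY Sox9KO against XY Ctr a dimmer probe set fell by 0.62, whereas in XY DKO against XY Ctr another rose by 0.52, both called.

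The hypoxia factor itself was not called in any comparison with the probe set that stands for it and the settings above. Hif1a signal was 2526, 2893, 2938 and 3053 in XX Ctr, 2530, 3005, 2633 and 2555 in XY Ctr, 3069, 2780, 2752 and 2976 in XY Sox9KO, and 2581, 2498 and 2555 in XY DKO. The control groups overlapped, and the 3 XY DKO arrays lay below all XY Sox9KO arrays, as for 13.6% of all genes tested. The differences were -0.09 between XY and XX controls (limma adjusted p = 0.322), 0.11 upon loss of Sox9 in XY (limma adjusted p = 0.2) and -0.18 in XY DKO against XY Sox9KO (limma adjusted p = 0.0734), none of them called. Another Hif1a probe set was lower in XY Ctr than in XX Ctr by 0.28 (-0.28), which was called, and the mean over all 4 probe sets gave -0.25 (limma adjusted p = 0.00935). In XX DKO against XX Ctr that mean gave -0.22 (limma adjusted p = 0.049). XY DKO against XY Sox9KO was called with quantile normalization (-0.20, limma adjusted p = 0.0472) and with array weights (-0.18, limma adjusted p = 0.0481). HIF1A is regulated mainly at the level of its protein, which arrays do not measure.

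Egln3 encodes a prolyl hydroxylase that marks HIF1A for breakdown and is itself a HIF target. Its low signal was 150, 162, 134 and 138 in XX Ctr, 265, 212, 217 and 265 in XX Ctnnb1KO, 142, 144, 130 and 159 in XY Sox9KO and 247, 235 and 267 in XY DKO. The arrays without Ctnnb1 were higher in each of these pairs, with no overlap, whereas XY Ctnnb1KO, at 119, 254, 199 and 159, overlapped XY Ctr, at 175, 167, 124 and 136. XX DKO, at 251, 149, 201 and 202, also overlapped XX Ctr and was not called against it (0.40 ± 0.17, limma adjusted p = 0.115). Egln3 rose by 0.65 ± 0.17 in XX Ctnnb1KO against XX Ctr (limma adjusted p = 0.00763), by 0.68 ± 0.18 in XY DKO against XY Ctr (limma adjusted p = 0.00753) and by 0.73 ± 0.18 in XY DKO against XY Sox9KO (limma adjusted p = 0.00326). Its other probe set gave 0.42, 0.34 and 0.56, none called. Without XX Ctnnb1KO replicate 4 the XX rise was 0.61 (limma adjusted p = 0.0324).

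**Figure D3:**
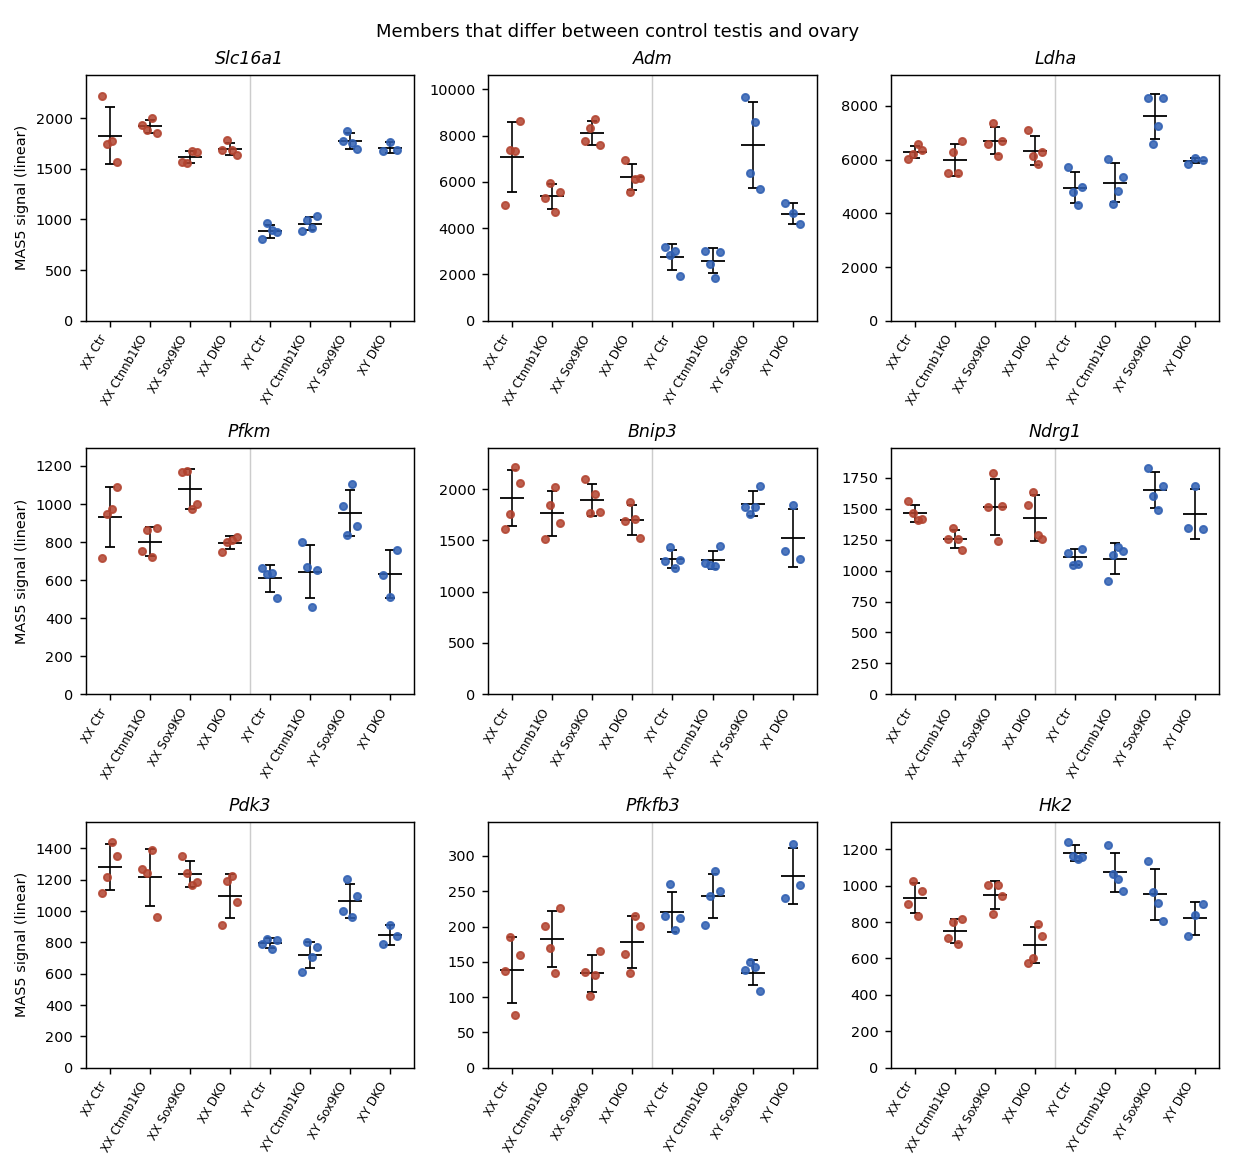
MAS5 signal (linear axes from 0) of the 9 members called in XY Ctr against XX Ctr, with a point for each array, XX groups on the left and XY groups on the right, and the mean and SD as bars. Slc16a1 has a mean of 883.1 in XY Ctr, 1774 in XY Sox9KO and 1709 in XY DKO, while Adm has 2740, 7579 and 4631.

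Among the other hypoxia response genes, Adm had the largest differences. It encodes adrenomedullin, a peptide that acts on blood vessels. Its signal was 5007, 7387, 7315 and 8640 in XX Ctr, 3205, 2826, 3008 and 1920 in XY Ctr, 9645, 6378, 8596 and 5698 in XY Sox9KO and 5074, 4648 and 4170 in XY DKO. XY DKO lay between XY Ctr and XY Sox9KO without overlapping either. The difference was -1.37 ± 0.17 between XY and XX controls (limma adjusted p = 7.85e-08), 1.46 ± 0.17 upon loss of Sox9 in XY (limma adjusted p = 2.24e-08), 0.78 ± 0.18 in XY DKO against XY Ctr (limma adjusted p = 0.00234) and -0.68 ± 0.18 in XY DKO against XY Sox9KO (limma adjusted p = 0.00606). The change upon loss of Sox9 was 1.24 ± 0.23 larger in XY than in XX gonads (limma adjusted p = 0.000175). A second, dimmer probe set of Adm was called in the same direction in the first 3 of these comparisons and gave -0.27 without a call in the last.

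Bnip3, a mitochondrial protein that promotes the removal of mitochondria, was 1615, 1753, 2214 and 2060 in XX Ctr, 1299, 1439, 1235 and 1310 in XY Ctr and 1827, 1754, 1824 and 2029 in XY Sox9KO. XY Ctr was the lowest of these groups, below all arrays of the others. It differed by -0.52 ± 0.10 between controls (limma adjusted p = 0.000201) and rose by 0.49 ± 0.10 upon loss of Sox9 in XY (limma adjusted p = 0.000417), which was 0.49 ± 0.15 more than in XX gonads (limma adjusted p = 0.015). Ndrg1, a gene raised by low oxygen and by differentiation in many cells, was 1560, 1463, 1413 and 1418 in XX Ctr, 1143, 1048, 1057 and 1179 in XY Ctr, 1833, 1604, 1490 and 1687 in XY Sox9KO and 1349, 1688 and 1334 in XY DKO. XY Ctr was below all arrays of these 3 other groups, while XY Ctnnb1KO, at 914, 1123, 1194 and 1159, overlapped it. Its differences were -0.40 ± 0.10 between controls (limma adjusted p = 0.00295), 0.57 ± 0.10 upon loss of Sox9 in XY (limma adjusted p = 6e-05) and 0.38 ± 0.11 in XY DKO against XY Ctr (limma adjusted p = 0.0165), the last lost without XY DKO replicate 3 (0.28, limma adjusted p = 0.161) and with the mean of all probe sets (0.23, limma adjusted p = 0.108). All 5 Ndrg1 probe sets were lower in XY Ctr than in XX Ctr and higher in XY Sox9KO than in XY Ctr, with 3 and 4 of them called.

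Ankrd37 and Ddit4 moved with Ctnnb1 in XX gonads. Ankrd37, a HIF target that encodes an ankyrin repeat protein, was 301, 281, 359 and 331 in XX Ctr, 424, 517, 418 and 442 in XX Ctnnb1KO and 560, 481, 464 and 514 in XX DKO. Both groups without Ctnnb1 were above all XX Ctr arrays. The rises were 0.48 ± 0.13 (limma adjusted p = 0.0165) and 0.64 ± 0.13 (limma adjusted p = 0.00104), the first not called without XX Ctr replicate 2 (0.43, limma adjusted p = 0.0684) or XX Ctnnb1KO replicate 2 (0.42, limma adjusted p = 0.0674). Without XX Ctnnb1KO replicate 4 the rise in XX Ctnnb1KO was 0.49 (limma adjusted p = 0.0344). In XY gonads Ankrd37 was 411, 466 and 469 in XY DKO and 366, 287, 304 and 370 in XY Sox9KO, higher by 0.42 ± 0.15 (limma adjusted p = 0.0354), a call lost without XY Sox9KO replicate 2 or 3 or XY DKO replicate 3 or 4. Ddit4, also called REDD1, restrains mTOR signalling under stress. It was 5173, 5543, 4701 and 5778 in XX Ctr, 4710, 3895, 3819 and 3785 in XX Ctnnb1KO and 4656, 3861, 4332 and 4029 in XX DKO, with 1 Ctnnb1KO array just above the lowest control. It fell by 0.39 ± 0.10 (limma adjusted p = 0.00755) and by 0.33 ± 0.10 (limma adjusted p = 0.0243), with the first at -0.36 without XX Ctnnb1KO replicate 4 (limma adjusted p = 0.0329) and the latter lost without XX Ctr replicate 2 or 4 or XX DKO replicate 2 or 4.

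Vegfa, the main growth factor of blood vessels and a classic HIF target, was not called in any comparison. Its signal was 724, 450, 319 and 372 in XX Ctr, 291, 297, 274 and 310 in XX Ctnnb1KO, 601, 299, 412 and 547 in XY Ctr, 456, 623, 430 and 440 in XY Sox9KO and 501, 254 and 644 in XY DKO. The XX Ctr, XY Ctr and XY DKO arrays spread widely. The XX Ctnnb1KO arrays lay close together below every XX Ctr array, as for 6.77% of all genes tested. The difference was -0.58 ± 0.23 (limma adjusted p = 0.116). Without XX Ctnnb1KO replicate 4 this difference was -0.60 (limma adjusted p = 0.164). Vegfa differed by 0.02 between XY and XX controls (limma adjusted p = 0.967) and by 0.10 upon loss of Sox9 in XY (limma adjusted p = 0.765). P4ha1 and P4ha2, the collagen prolyl hydroxylases, had no call either.

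**Figure D4:**
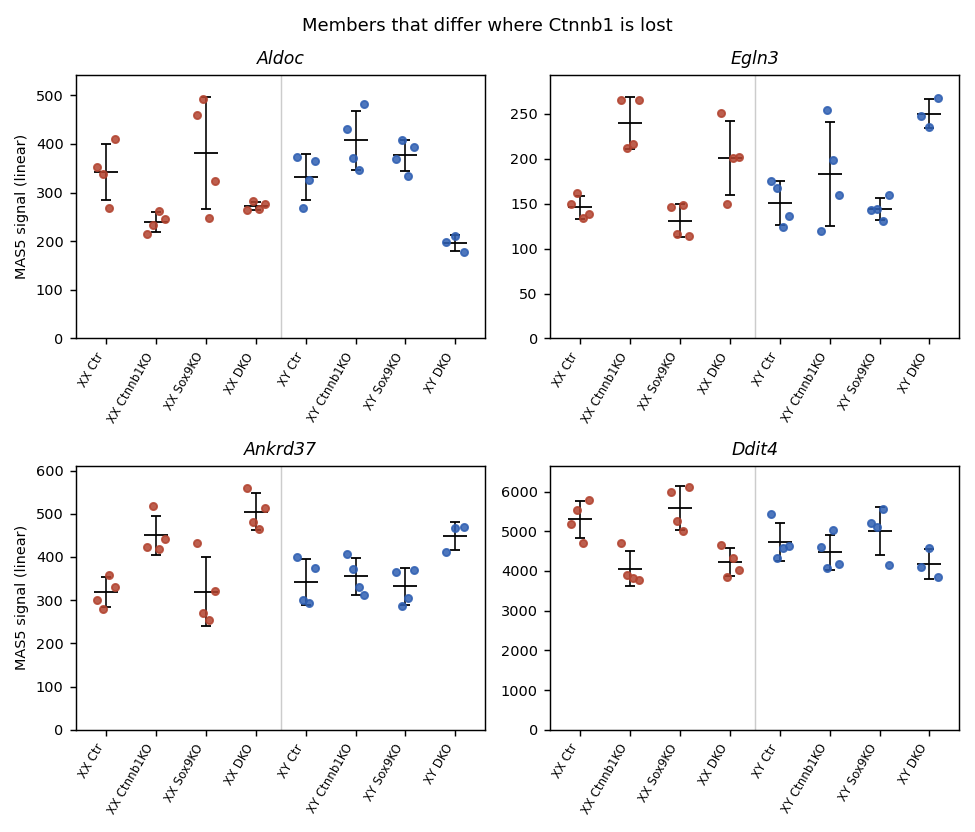
MAS5 signal (linear axes from 0) of 4 members called in some comparisons of groups that lost Ctnnb1, with a point for each array, XX groups on the left and XY groups on the right, and the mean and SD as bars. None of them was called in XY Ctnnb1KO against XY Ctr. Egln3 has means of 239.7 in XX Ctnnb1KO and 249.8 in XY DKO against 146 in XX Ctr and 144 in XY Sox9KO. Aldoc has its lowest mean, 196, in XY DKO and its highest, 407.5, in XY Ctnnb1KO.

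The test of whether Sox9 loss acts differently in XY and XX gonads called 6 members, all higher, where 12.7% of all genes were called higher and 10.7% lower. They were Slc16a1, Adm, Ldha, Ndrg1 (0.53 ± 0.15, limma adjusted p = 0.00853), Bnip3 and Pdk3 (0.46 ± 0.15, limma adjusted p = 0.0303). The Pdk3 call was lost, with values of 0.39 to 0.44, without any of XX Ctr replicates 3 and 4, XX Sox9KO replicates 3 and 4, XY Ctr replicate 3 and XY Sox9KO replicates 2 and 4. For Ctnnb1 loss in XY against XX, Aldoc alone was called, where 4.19% of all genes were. Whether Ctnnb1 loss acts differently without Sox9 in XY gonads was called for 2 members, both lower, where 4.47% of all genes were called lower and 5.27% higher. They were Aldoc and Pfkm (-0.65 ± 0.21, limma adjusted p = 0.0398), which was lost, with values of -0.51 to -0.67, without any of XY Ctr replicates 2 and 4, XY Ctnnb1KO replicates 1, 2 and 4, XY Sox9KO replicates 1 and 3 and XY DKO replicates 2 and 3.

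Genes of neighbouring pathways are read against the same shares of all genes, 18% higher and 19.8% lower in XY Ctr against XX Ctr, 22.7% and 16% in XY Sox9KO against XY Ctr, and 9.62% and 7.61% in XY DKO against XY Ctr. Of 20 tested genes of glycolysis and pyruvate use outside the members, 3 were higher and 9 lower in XY Ctr than in XX Ctr, 8 rose and 3 fell in XY Sox9KO against XY Ctr, and 3 rose and 1 fell in XY DKO against XY Ctr. Slc16a7, the transporter MCT2, ran against Slc16a1. It was 1.04 ± 0.23 higher in XY Ctr than in XX Ctr and fell by 1.63 ± 0.23 in XY Sox9KO (both called). Pdp2, a phosphatase that activates pyruvate dehydrogenase, was lower in XX Ctnnb1KO (-0.87) and XX DKO (-0.998) than in XX Ctr and lower in XY DKO than in XY Sox9KO (-0.83 ± 0.16), all called. Of 14 genes of the pentose phosphate path and of glycogen, 1 was higher and 4 lower in XY Ctr, 6 rose and none fell in XY Sox9KO, and 4 rose and none fell in XY DKO against XY Ctr. Tkt, the transketolase that links the pentose phosphate path to glycolysis, was 0.59 ± 0.08 lower in XY Ctr (-0.59, limma adjusted p = 2.62e-07) and rose by 0.79 ± 0.08 in XY Sox9KO (limma adjusted p = 9.53e-10).

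Of 12 genes of the oxygen sensing machinery, 4 were higher and 1 lower in XY Ctr, and 3 rose and 2 fell in XY Sox9KO. None was called by limma in XX Ctnnb1KO or XX DKO against XX Ctr, where 10.1% and 12.9% of all genes were called in either direction. At an unadjusted limma p under 0.05 there were 1 and 4, a threshold at which no share of all genes is given. Epas1, which encodes HIF2A and is strong in blood vessels, had means of 1675 in XX Ctr, 2774 in XY Ctr, 1644 in XY Sox9KO and 2349 in XY DKO, a difference of 0.74 ± 0.13 between controls (limma adjusted p = 2.71e-05). It thus ran against Adm and Bnip3. Of 23 other known hypoxia targets, 8 were higher and 4 lower in XY Ctr, 7 rose and 9 fell in XY Sox9KO, and 7 rose and 6 fell in XY DKO against XY Ctr. Bhlhe40, a transcription repressor, was 2.30 ± 0.25 higher in XY Ctr, whereas Tfrc, the transferrin receptor, was lower by 1.48 ± 0.15 (-1.48). Car12, a carbonic anhydrase, had a mean of 67.5 in XY Ctr and 376.1 in XY DKO, 2.23 ± 0.22 higher and called. Calls went in both directions among these targets, as among all genes. A response to low oxygen was not tested.

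The summed signals of several lists of cell type markers also differed between groups. In whole gonads, fewer cells of a type and less RNA per cell cannot be told apart. The summed signal of 15 Sertoli markers was 37405 to 43889 in XY Ctr and 34895 to 39692 in XY Ctnnb1KO, 5023 to 6199 in XY Sox9KO and 10394 to 10910 in XY DKO. In XX gonads it was 5162 to 5673 in Ctr, 4949 to 6166 in Sox9KO, 6565 to 7728 in Ctnnb1KO and 7027 to 7402 in DKO. Of 13 tested, 11 were higher and 1 lower in XY Ctr than in XX Ctr, where 18% and 19.8% of all genes were. In XY Sox9KO 1 rose and 12 fell, where 22.7% and 16% of all genes did. The sum of 12 pregranulosa markers was 4963 to 5334 in XY Ctr and 5135 to 5482 in XY Ctnnb1KO, 18733 to 20901 in XY Sox9KO and 10585 to 12228 in XY DKO. In XX gonads it was 18160 to 20862 in Ctr, 18851 to 21504 in Sox9KO, 11379 to 13703 in Ctnnb1KO and 11296 to 13610 in DKO.

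Markers of meiotic germ cells (11) summed to 3275 to 3609 in XY Ctr and 2265 to 4292 in XY Ctnnb1KO, 21004 to 30177 in XY Sox9KO and 5365 to 15067 in XY DKO. In XX gonads the sum was 22012 to 37373 in Ctr, 21979 to 33285 in Sox9KO, 12564 to 30979 in Ctnnb1KO and 11944 to 30188 in DKO. All 11 were lower in XY Ctr than in XX Ctr and higher in XY Sox9KO than in XY Ctr, where 19.8% and 22.7% of all genes were called so. In these 2 comparisons the pregranulosa and meiotic sums move in the same direction as Slc16a1, Adm, Ldha, Pfkm, Pdk3, Bnip3 and Ndrg1, and the Sertoli sum in the other. Where Ctnnb1 is lost in XX gonads, the pregranulosa sum is lower without overlap. Aldoc and Ddit4 (XX Ctnnb1KO) and Hk2 and Ddit4 (XX DKO) were called as lower in the same groups, while Slc16a1 averaged 1918 in XX Ctnnb1KO and 1825 in XX Ctr. Slc16a1 averaged 1709 ± 51.9 (SD, n = 3) in XY DKO and 1774 ± 75.1 (SD, n = 4) in XY Sox9KO. The part of these cell types in the results was not tested.

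Fetal Leydig markers (5) summed to 35328 to 40439 in XY Ctr, 3294 to 3896 in XY Sox9KO, 14251 to 17396 in XY DKO and 2603 to 4319 over the XX groups. Interstitial and myoid markers (8) summed to 33465 to 35104 in XY Ctr, 15734 to 16913 in XY Sox9KO and 25847 to 26921 in XY DKO. In XX gonads their sum was 14358 to 14909 in Ctr, 17745 to 19886 in Ctnnb1KO and 19441 to 23773 in DKO. Both sums are high in XY Ctr and low in XX Ctr and XY Sox9KO, as Pfkfb3 and Hk2 are. XY DKO lies below XY Ctr in both sums and in Hk2 (mean 819.4), while Pfkfb3 has its highest mean there (272). Against XY Sox9KO both sums and Pfkfb3 are higher in XY DKO, while the Hk2 mean is lower. Genes that respond to tissue handling and stress (8) summed to 10517 to 12142 in XY Ctr, 6264 to 7890 in XY Sox9KO and 9590 to 10784 in XY DKO. In XX gonads they summed to 7545 to 8561 in Ctr, 8824 to 10092 in Ctnnb1KO and 8859 to 9736 in DKO. Hk2 ran the other way from this sum in XX gonads, with a mean of 931.4 in Ctr, 752.1 in Ctnnb1KO and 673.6 in DKO. Hk2 and the sum were both higher in XY Ctr than in XX Ctr and lower in XY Sox9KO than in XY Ctr. From XY Sox9KO to XY DKO they parted, the sum being higher without overlap in XY DKO and the Hk2 mean lower. The part of these lists in the results was not tested.

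Macrophage markers (11) summed to 3133 to 5496 in XX Ctr, 5201 to 9339 in XX Ctnnb1KO, 3606 to 4146 in XX Sox9KO and 6892 to 8483 in XX DKO. In XY gonads their sum was 3812 to 4958 in Ctr, 4269 to 7213 in Ctnnb1KO, 4141 to 4883 in Sox9KO and 7519 to 9408 in DKO. The XY Ctnnb1KO and XY Ctr sums overlapped. Germ cell markers (11) summed to 14338 to 23806 in XX Ctr, 24281 to 32012 in XX Ctnnb1KO and 28190 to 35683 in XX DKO, and those of fetal male germ cells (6) to 383 to 539, 2333 to 3391 and 2681 to 3418. The sums of germ, fetal male germ and interstitial cells were higher without overlap, and that of macrophages higher on average, with Ctnnb1 loss in XX gonads, where Egln3 (XX Ctnnb1KO) and Ankrd37 rose and Aldoc (XX Ctnnb1KO), Hk2 (XX DKO) and Ddit4 fell. Their part in the results was not tested.

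Markers of endothelium (11), the cells that respond to Adm and Vegfa, ranged over all groups from 5280 to 7390, with 3 higher and none lower in XY Ctr than in XX Ctr. Of 6 erythroid markers tested, none was called with limma in any comparison. At an unadjusted limma p under 0.05 there were 2 in XY Sox9KO and 3 in XY DKO, each against XY Ctr. No share of all genes is given at that threshold. Of 7 proliferation genes, 2 were higher in XY Ctr than in XX Ctr, and 2 fell in XY Sox9KO. Of all genes tested, 18% were higher and 19.8% lower in XY Ctr than in XX Ctr, and 16% fell in XY Sox9KO.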

How the data were processed

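Expression arrays of 31 pairs of gonads were used. The authors deposited MAS5 signal intensity for 45101 probe sets, per the submitters' processing notes; no source used here gives the MAS5 version. MAS5 takes each array alone, so array-wide shifts and noise at low signal remain. In the platform annotation 34945 probe sets have a single gene symbol, 932 several and 9160 none; 64 controls were left out. Per gene the probe set with the highest mean was kept, and a gene was tested where it exceeded its array's median signal on at least 3 arrays.

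From the deposited signal, log2(signal + 16) was computed, which understates changes of dim genes, and fitted with limma 3.58.1 (R 4.3.3) as 8 groups with a shared variance, adjusting over all 11777 genes. The script was tested on simulated data. Alternatives were pseudocounts of 1 and 64, quantile normalization, median centring, no filter, the mean of all probe sets, array weights, fits on compared arrays alone, a replicate block, and leaving out each array.

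Values by array are given for up to 4 called members a role and comparison, and for Hif1a, Ldha, Slc2a1, Vegfa and Pgk1. Members and lists were chosen with earlier results of these data known. The number of arrays limits the precision.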

Additional observations from a re-analysis of the deposited data

Results flagged for a closer look

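Among 217 sets of 4 arrays (a member in a group), 8 had a highest or lowest array set apart from the other 3 by more than Dixon's 95% limit; chance sets apart about 1 in 20. Ddit4 was 4710 in XX Ctnnb1KO replicate 1 against 3785 to 3895 in the other 3 arrays. Hif1a was 2924 in XX Ctnnb1KO replicate 4, the array with low Xist, against 2589 to 2610. Pgam1 was 5740 in XX Ctnnb1KO replicate 3 against 6234 to 6295. In XX Ctr, Pdk1 was 800.4 in replicate 2 against 928.3 to 939.5, and Pkm was 3868 in replicate 1 against 4292 to 4323. In XY Ctr, Pfkm was 503.7 in replicate 4 against 632.6 to 662.5. In XY Sox9KO replicate 2, Ldhb was 9675 against 11510 to 11900 and Vegfa was 623.1 against 429.7 to 455.5.

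Effects that differed between groups by a test of the difference (limma, adjusted over all genes) were these. Loss of Sox9 changed Slc16a1 by 1.16, Adm by 1.24, Ldha by 0.53, Ndrg1 by 0.53, Bnip3 by 0.49 and Pdk3 by 0.46 more in XY than in XX gonads, on the log2 scale. Loss of Ctnnb1 gave Aldoc 0.76 more in XY than in XX gonads. In XY gonads its effect without Sox9 minus that with Sox9 was -1.17 for Aldoc and -0.65 for Pfkm.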

How the results depend on the processing

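Of 53 called member differences, 32 stayed called under every alternative and with any array left out, and no difference followed changed sign past the threshold. Leaving out 1 array, the number of members called was 7 to 10 for XY Ctr against XX Ctr, 2 to 5 for XX Ctnnb1KO and 2 to 4 for XX DKO against XX Ctr, 9 to 13 for XY Sox9KO and 6 to 9 for XY DKO against XY Ctr, 7 to 9 for XY DKO against XY Sox9KO, 0 to 1 for XY DKO against XX DKO and for XY Sox9KO against XX Ctr, 5 to 7 for Sox9 loss by sex, 0 to 1 for Ctnnb1 loss by sex, and 1 to 3 for Ctnnb1 loss by Sox9 in XY. Array weights, chosen from the arrays' own fit, gave 7 for XX Ctnnb1KO against XX Ctr, 11 for XY DKO against XY Ctr, 15 for XY DKO against XY Sox9KO, 3 for XY DKO against XX DKO and 5 for Ctnnb1 loss by Sox9 in XY. That last count was 1 with quantile normalization, median centring, no filter or the mean of probe sets. Ctnnb1 loss by sex gave 0 with quantile normalization, no filter and the mean of probe sets. The mean of probe sets gave 5 for XX DKO against XX Ctr, and a fit on the compared arrays alone gave 5 for XY DKO against XY Sox9KO; the cause was not tested. Replicate numbers only name the arrays: correlations of same-numbered deviations ran from -0.448 to 0.537, and with the replicate number as a block Ctnnb1 loss by Sox9 in XY gave 1 call, Pfkm being lost, while Ldha in XY DKO against XY Ctr was gained. Probe sets with signals near the array median, such as those of Egln3 and Pfkfb3, are the least precise.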
